A study of Capra hircus with 6 samples.

Results

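The genes described here are 36 genes that fold proteins in the endoplasmic reticulum (ER) or sense and answer the build-up of unfolded protein there. They were chosen by symbol for these roles, and 35 of them were identified among the 17504 genes measured. SERP1, a small ER membrane protein, was matched to no gene and is not analysed here. Levels are FPKM (fragments divided by transcript length in kilobases and by the mapped fragments of the library), which can be set side by side between genes. Of the 35 genes, 34 reached the minimum of 1 FPKM in at least 3 of the 6 ovaries and were tested. TRIB3 did not reach it.

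Ovarian RNA came from 3 Jintang black goats (Capra hircus), labelled as a prolific breed, and from 3 Tibetan goats, labelled as non-prolific. All 6 goats were in the follicular phase, the part of the oestrous cycle in which follicles grow before ovulation and the old corpus luteum regresses. Each library is 1 goat, no treatment was given in the labels, and the sources used here give neither the goats' ages nor how the tissue was handled. In RNA of bulk tissue, fewer cells of a type and less RNA per cell cannot be told apart.

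Secreted and membrane proteins enter the ER through the translocon, bind chaperones such as BiP (HSPA5), receive disulfide bonds from protein disulfide isomerases and are either exported or returned to the cytosol for degradation. When unfolded protein builds up, the sensors IRE1 (ERN1), PERK (EIF2AK3) and ATF6 respond. IRE1 splices XBP1 mRNA and ATF6 is cleaved into a transcription factor, and both raise chaperone and degradation genes. PERK phosphorylates the initiation factor eIF2, which lowers translation in general but favours ATF4, and ATF4 and its partner DDIT3 (CHOP) raise another set of targets. Hormone-producing ovarian cells, plasma cells and matrix-secreting fibroblasts all have an extensive ER.

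The summed FPKM of a library ran from 602511 to 669309 in Jintang ovaries and from 602255 to 682801 in Tibetan ovaries, and 12617 to 13131 genes reached 1 FPKM. Absolute depth is unknown, but by the spacing of low values the libraries had relative depths of 0.923 to 1.03 (Tibetan 1 set to 1), a range of 1.12 times. Fold changes below are taken on log2(FPKM + 1) as Jintang minus Tibetan and were tested with limma across 13067 genes with Benjamini-Hochberg adjustment. None of the 34 genes passed at an adjusted p of 0.05, and the same held for 0% of all tested genes in either direction. At an unadjusted p under 0.05 there were 2 of the 34 (ERN1 and PDIA5, both with higher values in Jintang ovaries), or 5.88%, beside 6.17% of all tested genes. The breeds did not overlap in 1 of the 34 (CHAC1), or 2.94%, beside 9.9% of all tested genes. The values that follow therefore describe these 6 ovaries.

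Most of these genes differed more between goats of a breed than between the breed means. The summed level of the 35 genes was 3273, 5536 and 2926 FPKM in Jintang 1, 2 and 3, against 2490.1, 2850.3 and 4641 FPKM in Tibetan 1, 2 and 3. Jintang 2 and Tibetan 3 thus stood highest within their breeds, and the breeds overlapped. These sums were 0.543%, 0.886% and 0.437% of a library's FPKM in Jintang ovaries, and 0.414%, 0.417% and 0.760% in Tibetan ovaries. The highest ovary was Jintang 2 in 18 of the 34 tested genes (52.9%, beside 20.6% of all tested genes), and Tibetan 3 in 10 (29.4%, beside 18% of all tested genes). Those 2 ovaries held both top places in 18 genes (52.9%, beside 14.7% of all tested genes). The lowest ovary was Tibetan 1 in 22 genes (64.7%, beside 20.8% of all tested genes). In 28 of the 34 genes the highest ovary was at least 2 times the lowest (82.4%, beside 67.9% of all tested genes).

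**Figure D1:**
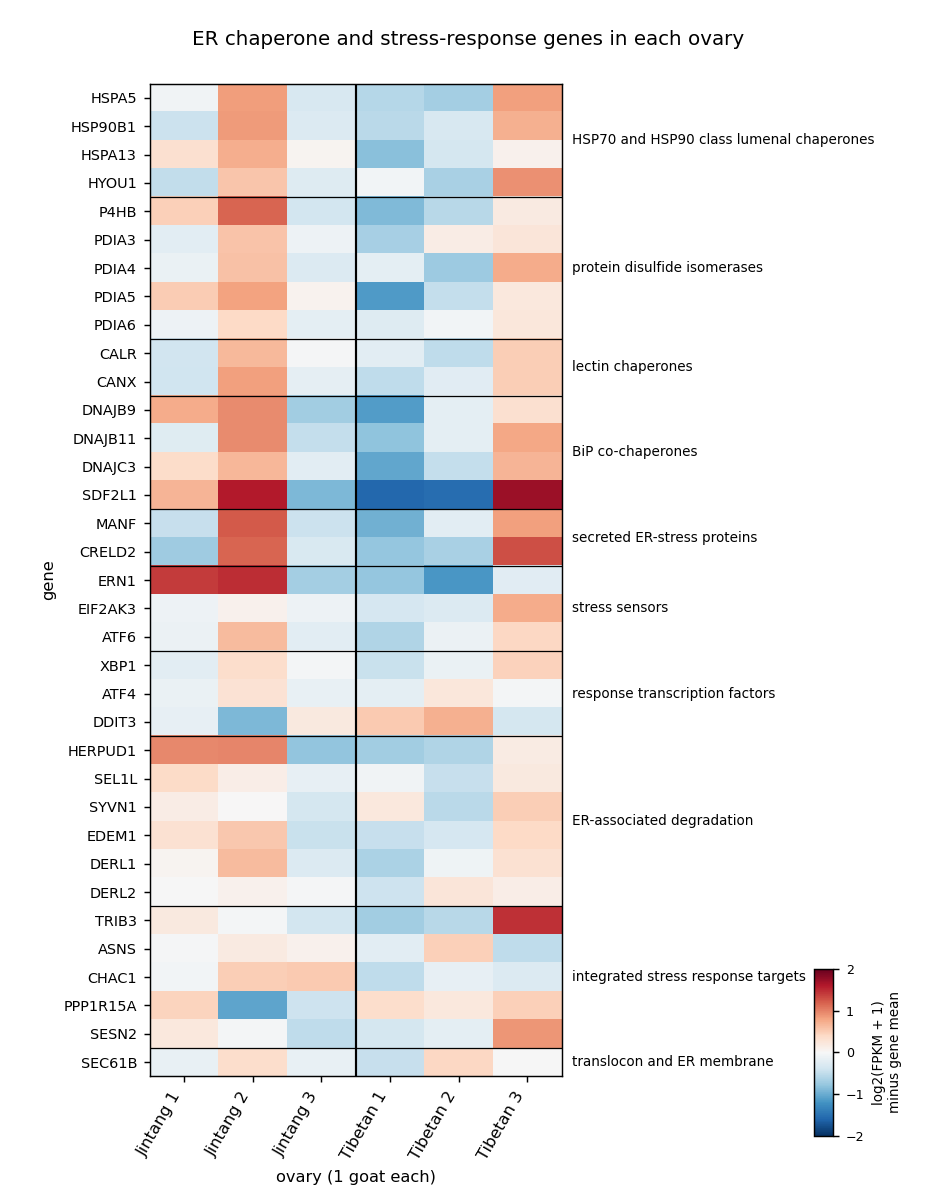
Heat map of 35 genes (rows, grouped by role) in 6 ovaries (columns, 1 goat each, Jintang left of the black line and Tibetan right of it); colour is log2(FPKM + 1) minus the gene's mean over the 6 ovaries, red for higher and blue for lower. The columns of Jintang 2 and Tibetan 3 are red for most chaperones, Tibetan 1 is blue for most of them, and DDIT3 and PPP1R15A are blue in Jintang 2.

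Set against each other, the breed means leaned slightly towards Jintang. The log2 fold change was above 0 in 28 of the 34 genes (82.4%, beside 41% of all tested genes), with a median of 0.16 beside -0.096 for all tested genes. With median-ratio scaling, which moves the median of all genes to 0.018 and puts 51.95% of them above 0, 30 genes were above 0 and their median was 0.28. The sign and size of this lean rested on single goats. Without Jintang 2, 13 genes were above 0 (38.24%, beside 37.84% of all tested genes) and the median was -0.075 (beside -0.11). Without Tibetan 1, 16 genes were above 0 (47.06%, beside 38.66%) and the median was -0.037 (beside -0.11). Without Tibetan 3, 30 genes were above 0 (88.24%, beside 44.41%) and the median was 0.48 (beside -0.072). In each of these runs the median stayed above that of all tested genes. In 27 of the 34 genes the difference between breeds was smaller than the SD between goats of a breed. The share over all tested genes was not counted, so this count does not set these genes apart from others.

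The major folding machinery of the ER lumen was abundant in every ovary. Calreticulin (CALR, GeneID 102185733), a lectin chaperone that also stores calcium, had the highest mean of the 35 genes and ranked 151 of 17504 genes by mean FPKM. It stood at 433, 887 and 557 FPKM in Jintang 1, 2 and 3, against 492, 400.4 and 797 FPKM in Tibetan 1, 2 and 3. Its membrane-bound relative calnexin (CANX) stood at 107, 249 and 123 FPKM in Jintang ovaries, against 99.0, 120.4 and 197 FPKM in Tibetan ovaries. In both lectin chaperones Jintang 2 was highest, Tibetan 3 next, and the breeds overlapped. Their log2 fold changes were 0.15 (SE 0.42) and 0.16 (SE 0.41), with limma adjusted p-values of 0.935 and 0.929.

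HSPA5 (BiP, GeneID 102185663), the HSP70 of the ER and the main sensor-binding chaperone, stood at 267, 501 and 223 FPKM in Jintang 1, 2 and 3, against 187, 174 and 493 FPKM in Tibetan 1, 2 and 3. The 2 highest ovaries belonged to different breeds and differed by little, and the log2 fold change was 0.30 (SE 0.50, limma adjusted p = 0.897). HSP90B1 (GRP94, GeneID 102179454), the HSP90 of the ER, followed the same order at the top, with 241, 581 and 269 FPKM in Jintang ovaries against 222, 258 and 531 FPKM in Tibetan ovaries. HYOU1, a large HSP70 relative that recharges BiP with nucleotide, stood at 28.9, 61.4 and 34.4 FPKM in Jintang ovaries, against 39.5, 25.8 and 78.3 FPKM in Tibetan ovaries. Here Tibetan 3 was highest and Jintang 2 next, and the log2 fold change was -0.13 (SE 0.45). HSPA13, a less abundant microsomal HSP70 relative, stood apart from this order, with 22.8, 30.4 and 18.8 FPKM in Jintang ovaries against 9.60, 13.9 and 19.2 FPKM in Tibetan ovaries. Only Jintang 3 and Tibetan 3 overlapped, and the log2 fold change was 0.74 (SE 0.33, limma adjusted p = 0.743).

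Because HSPA5 varied so much between goats, its partners were also set against it within each library, a ratio that does not depend on how libraries are scaled. The ratio of HSP90B1 to HSPA5 was 0.902, 1.16 and 1.21 in Jintang ovaries, against 1.19, 1.48 and 1.08 in Tibetan ovaries, so it varied by 1.64 times while HSPA5 itself varied by 2.88 times. The ratio of PDIA4 to HSPA5 varied by 1.55 times, that of CALR by 1.63 times, that of DNAJB11 by 1.69 times and that of CANX by 1.73 times. It varied more for the co-chaperone SDF2L1 (4.25 times), CHAC1 (5.30 times), ASNS (5.93 times), ERN1 (6.08 times), PPP1R15A (7.29 times), TRIB3 (7.74 times) and DDIT3 (9.09 times). Of the other 33 tested genes, 22 varied less in their ratio to HSPA5 than HSPA5 did in level (66.7%, beside 18.5% of all tested genes).

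The protein disulfide isomerases showed 2 patterns. P4HB (GeneID 102169902), a disulfide isomerase that is also the beta subunit of collagen prolyl 4-hydroxylase, stood at 533, 853 and 294 FPKM in Jintang 1, 2 and 3, against 206, 258 and 431 FPKM in Tibetan 1, 2 and 3. Both Jintang 1 and Jintang 2 lay above every Tibetan ovary, while Jintang 3 lay between Tibetan 2 and Tibetan 3. Its log2 fold change was 0.85 (SE 0.47, limma adjusted p = 0.743). PDIA5, another disulfide isomerase, had the same order in Jintang goats, with 34.7, 42.9 and 25.4 FPKM against 10.5, 17.1 and 27.9 FPKM in Tibetan ovaries. Jintang 3 and Tibetan 3 overlapped, and the log2 fold change was 0.93 (SE 0.38, unadjusted p = 0.0411, limma adjusted p = 0.743).

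In the other isomerases no such margin of Jintang 1 and Jintang 2 over the Tibetan ovaries was seen. PDIA3 (ERp57), which works on glycoproteins held by calreticulin and calnexin, stood at 257, 444 and 277 FPKM in Jintang ovaries, against 187, 331 and 353 FPKM in Tibetan ovaries. PDIA4 (ERp72) stood at 119, 197.0 and 108 FPKM in Jintang ovaries, against 114, 78.3 and 220.2 FPKM in Tibetan ovaries. PDIA6 was the steadiest of the isomerases, with a highest ovary only 1.58 times the lowest, at 158.5 to 251 FPKM. The log2 fold changes of these 3 genes ran from 0.061 to 0.18, each smaller than its SE.

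**Figure D2:**
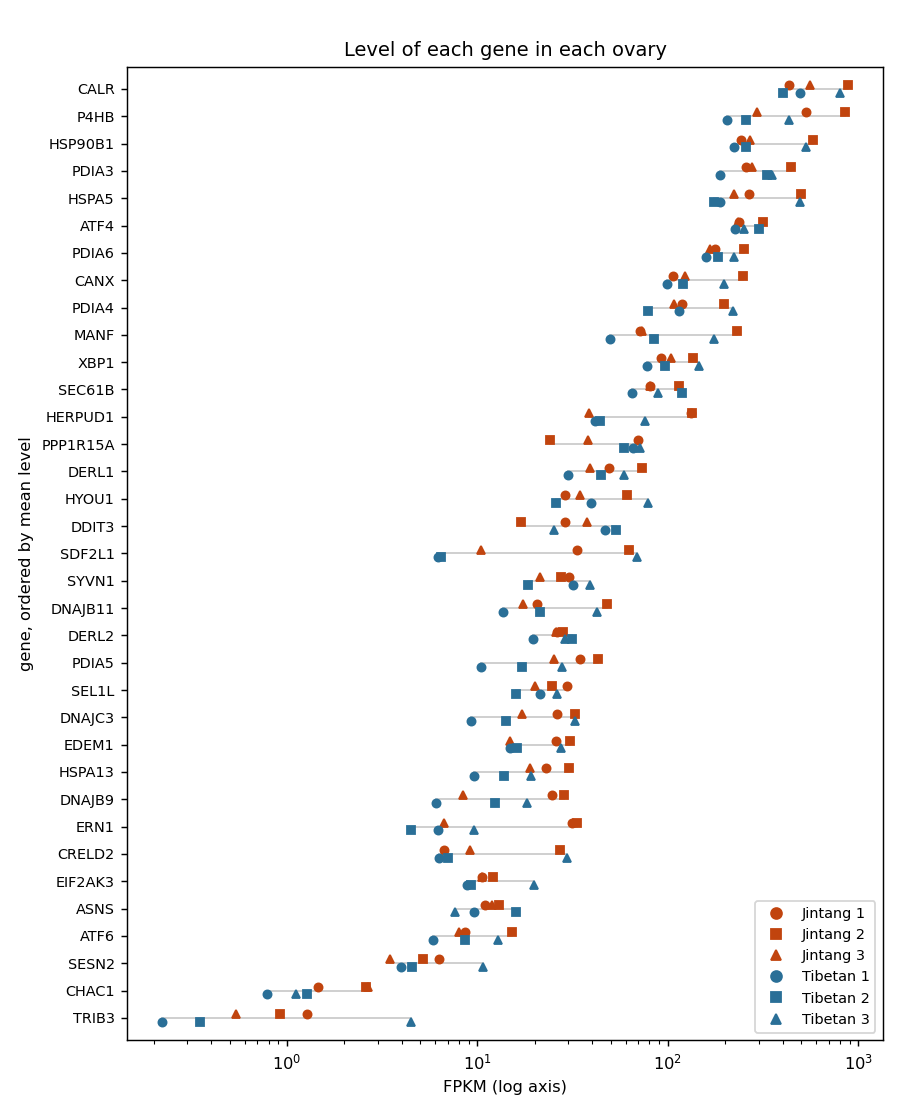
FPKM on a log axis (x) of 35 genes (y, ordered by mean level, highest at the top) in each ovary; orange marks are Jintang goats and blue marks Tibetan goats, circles, squares and triangles are goats 1, 2 and 3, and the grey line spans the 6 ovaries. CALR, P4HB, HSP90B1, PDIA3 and HSPA5 lie highest, orange squares (Jintang 2) and blue triangles (Tibetan 3) form the right edge of most rows, and TRIB3 and CHAC1 lie lowest.

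Among BiP's co-chaperones SDF2L1 varied most between ovaries. SDF2L1 (GeneID 102186895), which works with BiP and DNAJB11 on nascent proteins, stood at 33.4, 62.8 and 10.5 FPKM in Jintang 1, 2 and 3, against 6.18, 6.46 and 69.1 FPKM in Tibetan 1, 2 and 3. Tibetan 3 and Jintang 2 were highest, Jintang 1 was intermediate, and the highest ovary was 11.2 times the lowest. Its log2 fold change of 0.91 had an SE of 0.94 and ran from 0.35 without Jintang 2 to 2.00 without Tibetan 3. DNAJB11 (ERdj3), a J protein of the lumen that brings substrates to BiP, stood at 20.6, 48.0 and 17.3 FPKM in Jintang ovaries, against 13.6, 21.3 and 42.6 FPKM in Tibetan ovaries.

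DNAJC3 (p58IPK), a lumenal co-chaperone that was described as an inhibitor of PERK, stood at 26.1, 32.4 and 17.2 FPKM in Jintang ovaries, against 9.23, 14.1 and 32.5 FPKM in Tibetan ovaries. DNAJB9 (ERdj4), which hands misfolded proteins to degradation and holds BiP on IRE1, stood at 24.6, 28.5 and 8.44 FPKM in Jintang ovaries, against 6.03, 12.4 and 18.2 FPKM in Tibetan ovaries. For DNAJB9, as for P4HB, both Jintang 1 and Jintang 2 lay above every Tibetan ovary and Jintang 3 did not. All 4 co-chaperones were lowest in Tibetan 1, and their log2 fold changes ran from 0.15 to 0.91 with limma adjusted p-values of at least 0.782.

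The secreted stress proteins MANF and CRELD2 also had their highest values in Jintang 2 and Tibetan 3. MANF, a factor that leaves the cell when ER calcium is low, stood at 71.0, 232 and 73.0 FPKM in Jintang ovaries, against 49.8, 84.9 and 175 FPKM in Tibetan ovaries. CRELD2 stood at 6.66, 27.1 and 9.13 FPKM in Jintang ovaries, against 6.32, 7.03 and 29.7 FPKM in Tibetan ovaries. For CRELD2 the remaining 4 ovaries lay within 6.32 to 9.13 FPKM, and the breed means were 14.3 ± 11.2 FPKM in Jintang ovaries and 14.4 ± 13.3 FPKM in Tibetan ovaries (SD, n = 3 each).

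The 3 sensors had Jintang 1, Jintang 2 and Tibetan 3 as their highest ovaries, by different margins and in different orders. ERN1 (IRE1 alpha, GeneID 102173038) had the largest log2 fold change of the 34 genes, 1.46 (SE 0.58, unadjusted p = 0.0364, limma adjusted p = 0.743). It stood at 31.5, 33.4 and 6.68 FPKM in Jintang 1, 2 and 3, against 6.20, 4.49 and 9.54 FPKM in Tibetan 1, 2 and 3. Jintang 1 and Jintang 2 were more than 3 times as high as any other ovary, while Jintang 3 lay between Tibetan 1 and Tibetan 3. The log2 fold change was 2.16 without Jintang 3 and 1.08 without Jintang 2. EIF2AK3 (PERK) was highest in Tibetan 3, with 10.6, 12.1 and 10.6 FPKM in Jintang ovaries against 8.85, 9.25 and 19.7 FPKM in Tibetan ovaries. ATF6 had the order of the chaperones, with 8.65, 15.2 and 8.05 FPKM in Jintang ovaries against 5.84, 8.56 and 12.9 FPKM in Tibetan ovaries.

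XBP1 and ATF4, transcription factors below the sensors, varied less than the sensors. XBP1, whose mRNA is the substrate of IRE1, stood at 91.7, 136 and 103 FPKM in Jintang ovaries, against 77.6, 96.2 and 147 FPKM in Tibetan ovaries. Gene-level FPKM does not separate its spliced from its unspliced form. ATF4, which is regulated mainly at translation, was the steadiest of the 35 genes, with a highest ovary 1.40 times the lowest. It stood at 235, 316 and 232 FPKM in Jintang ovaries, against 226, 300.3 and 249.7 FPKM in Tibetan ovaries, and its log2 fold change was 0.0084 (SE 0.29).

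DDIT3 ran the other way from the chaperones, and PPP1R15A did so in Jintang 2 but not in Tibetan 3. DDIT3 (CHOP, GeneID 102175557), a factor tied to cell death under lasting stress, stood at 28.9, 16.9 and 37.4 FPKM in Jintang 1, 2 and 3, against 46.9, 53.5 and 25.1 FPKM in Tibetan 1, 2 and 3. It was lowest in the ovaries where most chaperones were highest, Jintang 2 and Tibetan 3, and its ratio to HSPA5 ran from 0.0338 in Jintang 2 to 0.307 in Tibetan 2. PPP1R15A (GADD34), which ends the eIF2 block on translation by recruiting a phosphatase, stood at 70.0, 24.0 and 38.2 FPKM in Jintang ovaries, against 65.4, 59.2 and 71.3 FPKM in Tibetan ovaries. Jintang 2 was again lowest, but Tibetan 3 was highest and Jintang 1 next. The log2 fold changes were -0.58 (SE 0.39) for DDIT3 and -0.68 (SE 0.39) for PPP1R15A, with limma adjusted p-values of 0.758 and 0.743, and both stayed below 0 with each goat left out in turn. The summed level of 10 immediate-early genes, which respond within minutes to growth factors and tissue stress (EGR1 and JUNB the most abundant), was 734, 339 and 439.6 FPKM in Jintang ovaries, against 664, 914 and 648 FPKM in Tibetan ovaries. This sum too was lowest in Jintang 2, as were EGR1, FOS, JUN, ZFP36 and FOSB. JUNB, DUSP1, IER2, NR4A1 and ATF3 were lowest in other ovaries, and JUNB stood at 100 FPKM in Jintang 2 against 55.6 FPKM in Tibetan 3. The part of the immediate-early genes in the values of DDIT3 and PPP1R15A was not tested.

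The other targets of ATF4 were low and mixed. CHAC1, an enzyme that breaks down glutathione, was the only one of the 34 genes whose breeds did not overlap. It stood at 1.46, 2.59 and 2.66 FPKM in Jintang ovaries, against 0.79, 1.28 and 1.11 FPKM in Tibetan ovaries, with a log2 fold change of 0.64 (SE 0.33, limma adjusted p = 0.743). ASNS (asparagine synthetase) averaged 11.96 ± 0.960 FPKM in Jintang ovaries and 11.04 ± 4.37 FPKM in Tibetan ovaries (SD, n = 3 each). SESN2, a sestrin that restrains growth signalling, stood at 6.32, 5.18 and 3.48 FPKM in Jintang ovaries, against 3.95, 4.53 and 10.7 FPKM in Tibetan ovaries. TRIB3, a pseudokinase induced by CHOP, reached 1 FPKM only in Jintang 1 (1.27) and Tibetan 3 (4.48). Both SESN2 and TRIB3 were highest in Tibetan 3 and next in Jintang 1. Over the 6 ovaries TRIB3 had the widest range of the 35 genes, 20.4 times.

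Genes of ER-associated degradation, which returns misfolded proteins to the cytosol for the proteasome, showed smaller ranges apart from HERPUD1. HERPUD1 (GeneID 102188888), which gathers the degradation complex, stood at 132, 134 and 38.6 FPKM in Jintang 1, 2 and 3, against 41.2, 44.0 and 75.4 FPKM in Tibetan 1, 2 and 3. As for ERN1, Jintang 1 and Jintang 2 were highest by a wide margin, whereas Jintang 3 was the lowest of all 6 ovaries. Its log2 fold change was 0.76 (SE 0.51, limma adjusted p = 0.758) and became 1.35 without Jintang 3. DERL1, a derlin of the retrotranslocation channel, stood at 49.0, 73.5 and 39.0 FPKM in Jintang ovaries, against 29.9, 44.4 and 58.6 FPKM in Tibetan ovaries, in the order of the chaperones. EDEM1, which marks glycoproteins for disposal, ranged from 14.9 to 30.7 FPKM in Jintang ovaries and from 14.8 to 27.5 FPKM in Tibetan ovaries.

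The ubiquitin ligase complex itself differed little. SYVN1 (HRD1), the ligase, averaged 26.4 ± 4.70 FPKM in Jintang ovaries and 29.7 ± 10.4 FPKM in Tibetan ovaries, and its partner SEL1L averaged 24.8 ± 4.84 and 21.2 ± 5.004 FPKM in Jintang and in Tibetan ovaries (SD, n = 3 each). DERL2, another derlin, averaged 26.8 ± 1.27 FPKM in Jintang ovaries and 26.7 ± 6.27 FPKM in Tibetan ovaries. SEC61B, a subunit of the translocon, averaged 92.0 ± 19.7 FPKM in Jintang ovaries and 90.8 ± 27.3 FPKM in Tibetan ovaries. The log2 fold changes of these 4 genes lay between -0.12 and 0.23, each smaller than its SE.

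**Figure D3:**
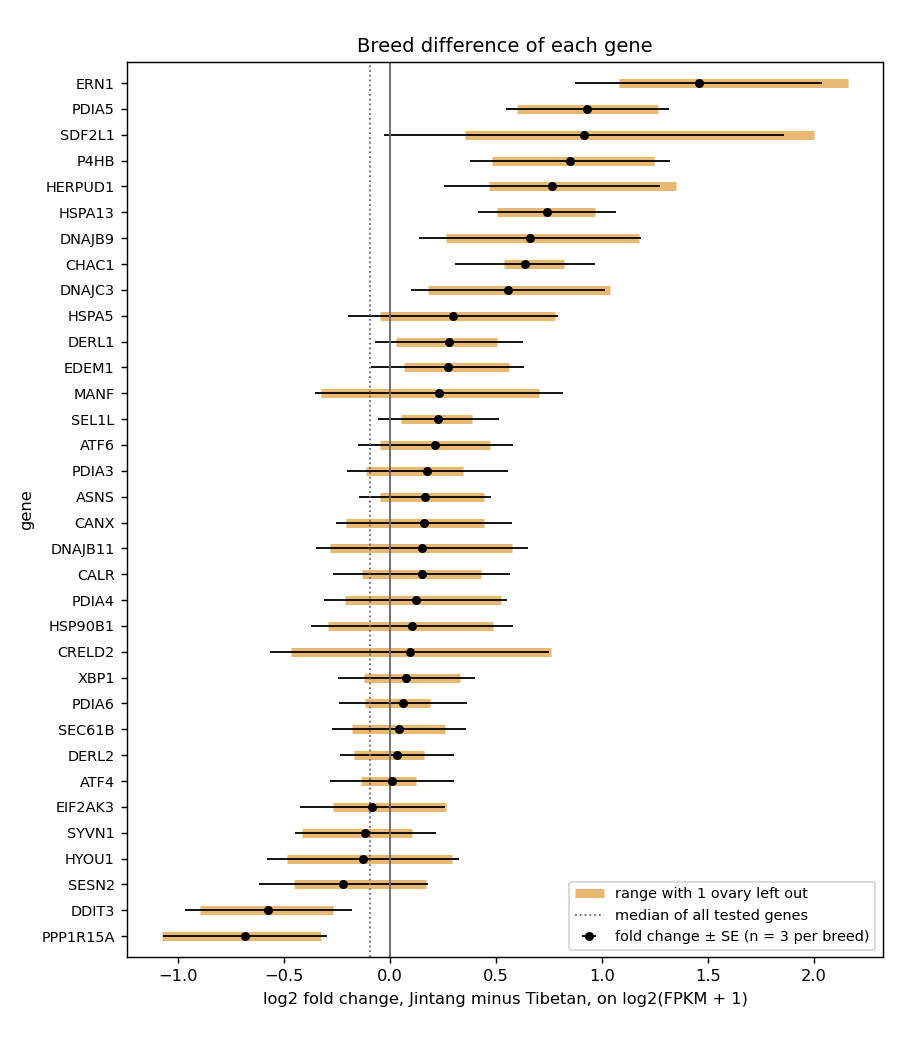
Log2 fold change, Jintang minus Tibetan on log2(FPKM + 1), of the 34 tested genes (y), with black points and bars for the estimate ± SE (n = 3 per breed), orange bars for the range when each ovary is left out in turn, and a dotted line for the median of all tested genes. ERN1 lies furthest right at 1.46 and PPP1R15A furthest left at -0.68, and 20 orange bars cross 0.

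Other genes of the same pathway, were taken from 5 further lists, of which the further ATF4 targets had a median as far above 0 as the 34 genes and the rest had medians nearer 0. Of 30 tested genes of ER folding and oxidation, 15 had a log2 fold change above 0 (median 0.0071), as did 17 of 34 of translocation and N-glycosylation (median 0.0077), 10 of 23 of ER-associated degradation (median -0.0076), 10 of 24 further sensors and regulators (median -0.085) and 20 of 34 further ATF4 targets (median 0.16). With median-ratio scaling these counts were 21, 26, 13, 13 and 23, in the same order of lists. None of them passed the limma test. TXNDC5, another disulfide isomerase, had the smallest p among the folding genes, with 279.6, 278 and 135 FPKM in Jintang ovaries against 94.1, 96.1 and 139 FPKM in Tibetan ovaries (limma estimate 1.01 on the log2 scale, SE 0.37, adjusted p = 0.743). CALU, a calcium-binding protein of the secretory pathway, had the next smallest p in that direction, at 86.8, 165 and 58.0 FPKM in Jintang ovaries against 39.8, 49.9 and 63.3 FPKM in Tibetan ovaries. In both, as in P4HB, Jintang 1 and Jintang 2 lay above every Tibetan ovary and Jintang 3 did not.

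Jintang 2 and Tibetan 3 were also the 2 highest ovaries for 11 of the 30 further folding genes, 19 of the 34 translocation and glycosylation genes, 9 of the 23 further degradation genes, 7 of the 24 further sensors and regulators and 18 of the 34 further ATF4 targets, beside 14.7% of all tested genes. Among those ATF4 targets, GDF15, a stress-induced secreted factor, stood at 2.06, 1.04 and 2.43 FPKM in Jintang ovaries, against 9.42, 4.26 and 8.52 FPKM in Tibetan ovaries (limma estimate -1.54 on the log2 scale, SE 0.38, adjusted p = 0.743). PCK2, a mitochondrial enzyme of gluconeogenesis, stood at 7.69, 12.1 and 7.43 FPKM in Jintang ovaries, against 2.97, 5.51 and 3.13 FPKM in Tibetan ovaries. The breeds did not overlap in either gene, and they lay on opposite sides. Of the 34 further ATF4 targets, 4 were higher and 2 lower in Jintang ovaries without overlap, beside 9.9% of all tested genes in either direction.

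Taken as 1 list, chaperones of the cytosol and mitochondria differed from those of the ER in the direction of the breed difference. Of 30 tested genes 2 had a log2 fold change above 0 (6.667%, beside 41% of all tested genes). The list median was -0.50 and lay between -0.64 and -0.33 in every alternative run. Those 2 genes were the mitochondrial chaperones HSPD1 (0.22) and HSPE1 (0.029). HSPD1 stood at 82.9, 530 and 100 FPKM in Jintang ovaries, against 94.8, 141 and 212 FPKM in Tibetan ovaries, with Jintang 2 and Tibetan 3 highest. The summed level of the 30 genes was 2379.6, 4478 and 3303 FPKM in Jintang ovaries, against 4113, 4088 and 6543 FPKM in Tibetan ovaries. The 2 highest ovaries of this sum were again Tibetan 3 and Jintang 2, but Jintang 1 was lowest. Jintang 2 and Tibetan 3 held both top places in 6 of the 30 genes, beside 14.7% of all tested genes. Of the 30 genes, 7 were lower and 0 higher in Jintang ovaries without overlap, beside 875 lower and 418 higher of 13067 tested genes. HSPA6, with the smallest p of this list, stood at 2.90, 1.72 and 3.44 FPKM in Jintang ovaries, against 16.6, 13.1 and 15.4 FPKM in Tibetan ovaries (limma estimate -2.14 on the log2 scale, SE 0.29, adjusted p = 0.343). DNAJB1, a J protein of the heat-shock response, stood at 39.5, 45.7 and 31.3 FPKM in Jintang ovaries, against 84.3, 78.7 and 113 FPKM in Tibetan ovaries. None passed the limma test, and the difference between the ER and the cytosolic list was not itself tested.

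**Figure D4:**
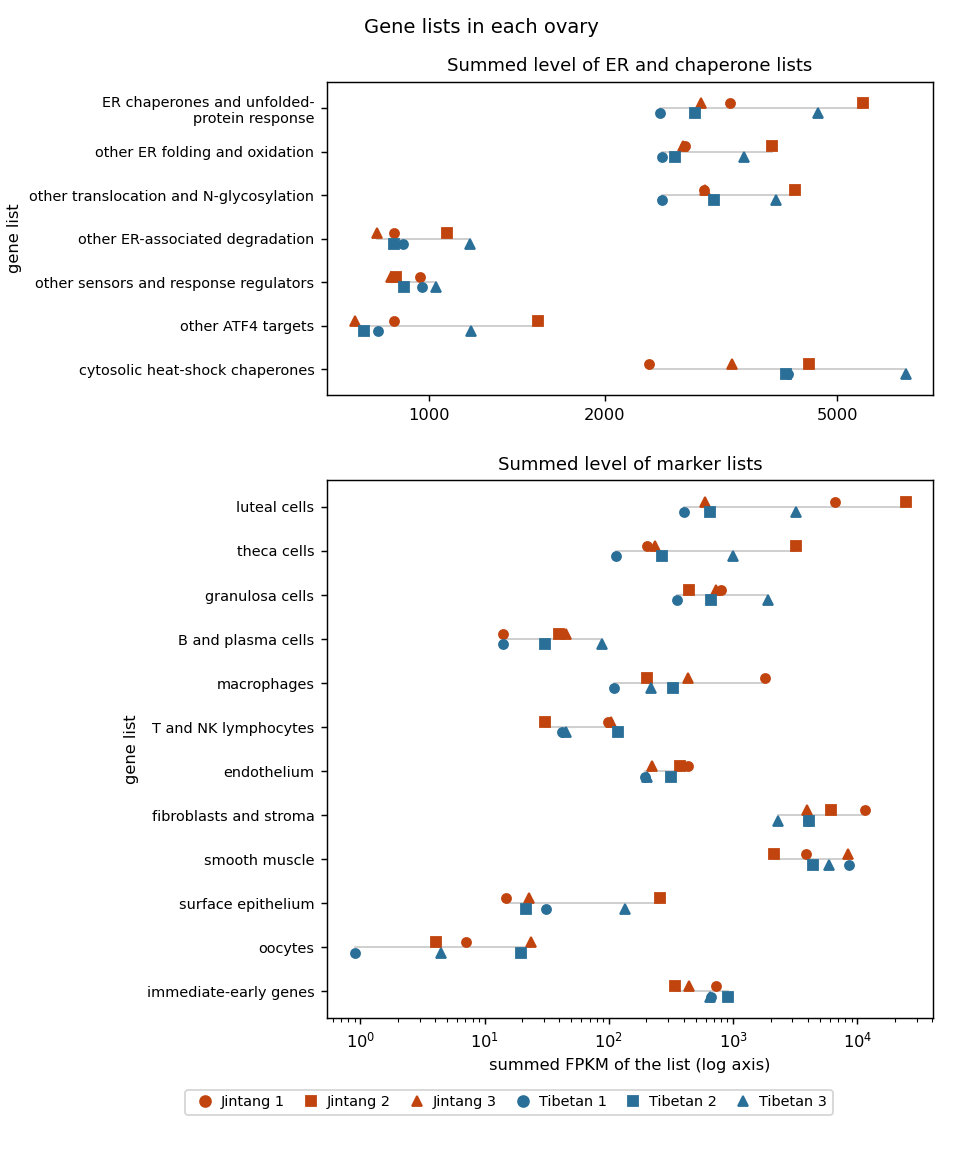
Summed FPKM on a log axis (x) of gene lists (y) in each ovary, with ER and chaperone lists in the upper panel and marker lists in the lower panel; orange marks are Jintang goats and blue marks Tibetan goats, circles, squares and triangles are goats 1, 2 and 3, and grey lines span the 6 ovaries. Jintang 2 and Tibetan 3 lie furthest right for the ER chaperones and for theca and surface epithelium markers, and Jintang 2, Jintang 1 and Tibetan 3 for luteal markers; erythrocyte markers, at most 0.72 FPKM in all, are not drawn.

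Marker lists of other cell types varied between goats, some with and some against the order of the ER genes. Luteal markers (9 of 10 identified) summed to 6560.0, 24414 and 588 FPKM in Jintang 1, 2 and 3, against 405, 649 and 3221 FPKM in Tibetan 1, 2 and 3, and none of the 9 was at 0 in any ovary. Their most abundant members were TIMP1, an inhibitor of matrix proteases, and CYP11A1 (LOC102173131), the enzyme that starts steroid synthesis. CYP11A1 stood at 515, 5995 and 99.5 FPKM in Jintang ovaries, against 52.8, 77.0 and 912 FPKM in Tibetan ovaries. Jintang 1, Jintang 2 and Tibetan 3 were the 3 highest ovaries of this list's sum and of each identified member except PTGFR and LHCGR. PTGFR was lowest in Tibetan 3 (9.23 FPKM), and LHCGR stood at 5.71 FPKM in Jintang 1 against 13.8 FPKM in Jintang 3. The same 3 ovaries were the highest in 16 of the 34 tested ER genes (47.1%, beside 10.7% of all tested genes). ERN1, HERPUD1, P4HB, DNAJB9, SDF2L1 and HSPA5 were among these genes.

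Theca markers (5 of 6 identified), which share STAR and LHCGR with the luteal list, summed to 201, 3197 and 234 FPKM in Jintang ovaries, against 114, 269 and 999.96 FPKM in Tibetan ovaries. The 2 members with the highest means differed, since STAR was highest in Jintang 2 (3130.4 FPKM) and CYP17A1 (LOC102182663), the androgen-producing enzyme, in Tibetan 3 (719 FPKM against 4.24 FPKM in Jintang 2). Markers of B and plasma cells (9 of 9 identified) summed to 13.95, 39.8 and 45.2 FPKM in Jintang ovaries, against 14.1, 30.7 and 88.2 FPKM in Tibetan ovaries. Their most abundant members were JCHAIN, which joins immunoglobulin units, and MZB1. MZB1, a BiP cofactor of plasma cells that is also counted among the folding genes, stood at 1.62, 18.4 and 12.4 FPKM in Jintang ovaries, against 2.72, 4.75 and 36.7 FPKM in Tibetan ovaries. MS4A1 and TNFRSF17 from this list were at 0 in Tibetan 1 and Tibetan 2, and CD79B in Tibetan 1.

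Fibroblast and stroma markers (10 of 10 identified) summed to 11432, 6162 and 3916 FPKM in Jintang ovaries, against 4024, 4072 and 2276 FPKM in Tibetan ovaries. Jintang 1 and Jintang 2 were highest, as they were for P4HB, TXNDC5 and CALU, and COL3A1 and COL1A1 were the most abundant members. These 2 ovaries were highest in COL3A1, COL1A1, COL1A2, LUM, POSTN and FBN1, but not in DCN, TCF21, PDGFRB and PDGFRA. DCN was lowest in Jintang 2 (531 FPKM, against 1370 FPKM in Jintang 3). Tibetan 3, which stood high for most ER genes, was the lowest ovary of this list. Granulosa markers (10 of 10 identified) summed to 802, 437 and 730.5 FPKM in Jintang ovaries, against 355, 668 and 1909 FPKM in Tibetan ovaries. INHA and GJA1 were their most abundant members, and FSHR was at 0 in Tibetan 1. INHA made up most of the Tibetan 3 sum (1194 FPKM). GJA1, INHBB, NR5A1 and CYP19A1 were also highest in Tibetan 3, whereas SERPINE2, AMH, HSD17B1, FOXL2 and FSHR were highest in other ovaries. In Tibetan 3, AMH stood at 0.95 FPKM, against 44.3 FPKM in Jintang 3. FOXL2 (1.75 FPKM) and HSD17B1 (0.55 FPKM) had their lowest values in Tibetan 3. Macrophage markers (11 of 12 identified) were highest in Jintang 1 (1802 FPKM, against at most 434 FPKM in the other 5 ovaries), with C1QB and C1QC the most abundant.

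Surface epithelium markers (6 of 8 identified) summed to 14.99, 256 and 22.9 FPKM in Jintang ovaries, against 31.4, 21.65 and 136 FPKM in Tibetan ovaries. Jintang 2 and Tibetan 3 were highest, as they were for most ER chaperones, and the most abundant members were KRT18, a keratin that stood at 243 FPKM in Jintang 2, and MSLN. KRT18 made up most of the Jintang 2 sum, and every other identified member was highest in another ovary. In Jintang 2, MSLN stood at 7.53 FPKM, LHX9 at 2.1 FPKM, EPCAM at 1.7 FPKM, KRT7 at 1.63 FPKM and KRT8 at 0.07 FPKM. Endothelial markers (9 of 10 identified, VWF and PECAM1 the most abundant) summed to 431, 375 and 222 FPKM in Jintang ovaries, against 194, 315 and 201 FPKM in Tibetan ovaries. Jintang 1 and Jintang 2 were highest in this sum and in PECAM1, CDH5, TIE1, PLVAP and TEK, but not in VWF, EMCN, KDR and ERG. VWF stood at 58.1 FPKM in Jintang 2, against 92.3 FPKM in Tibetan 2. EMCN and KDR were highest in Tibetan 2 and lowest in Jintang 1. Smooth muscle markers (8 of 8 identified, ACTA2 and TAGLN the most abundant) summed to 3823, 2133 and 8374 FPKM in Jintang ovaries, against 8495, 4361 and 5905 FPKM in Tibetan ovaries. Their sum was lowest in Jintang 2. It was highest in Tibetan 1, the ovary in which most ER genes were lowest, with Jintang 3 close below. Only MYH11 and LMOD1 were highest in Tibetan 1. ACTA2, TAGLN, MYLK and DES were highest in Jintang 3, and ACTG2 and CNN1 in Tibetan 3. Each identified member except DES was lowest in Jintang 2.

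Markers of T and NK lymphocytes (7 of 8 identified, CD247 and CD3E the most abundant) ranged from 30.9 to 105 FPKM in Jintang ovaries and from 41.8 to 119 FPKM in Tibetan ovaries, and were lowest in Jintang 2. Oocyte markers (7 of 8 identified, ZP3 and ZP4 the most abundant) ranged from 4.10 to 23.6 FPKM in Jintang ovaries and from 0.90 to 19.7 FPKM in Tibetan ovaries. DAZL was at 0 in Jintang 1, Jintang 2, Tibetan 1 and Tibetan 3, BMP15 in Tibetan 1 and Tibetan 3, and ZP4 in Tibetan 1. Of the erythrocyte markers 3 of 7 were identified, AHSP and SLC4A1 the highest. The part of these cell types in the values of the ER genes was not tested.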

How the data were processed

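Per the labels' protocols, total RNA was extracted with TRIzol from ovarian tissue and made into NEBNext Ultra libraries, 1 for each goat. The authors deposited 1 table of FPKM per goat, and a table of the whole series repeats the same 6 columns. TopHat2 2.0.10, Bowtie2 2.1.0 and RSEM 1.2.0 are named in the submitters' processing notes, which do not say what each did. Strand and genome build: not given in the sources used here. No coordinates or sequences are printed. FPKM is relative within a library, so very abundant genes lower the values of the rest.

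Genes were named through RefSeq (assembly ARS1.2; 16459 genes by GeneID, 9 by transcript accession, 1036 unmatched), with some list entries found under older symbols or synonyms. Genes at 1 FPKM or more in 3 or more libraries were tested with limma 3.58.1 in R 4.3.3 (eBayes with trend, 2-sided) after a log2(FPKM + 1) transform, in a model of breed alone without pairing. The procedure was tested on simulated data. Relative depth came from the mode of the ratios between libraries among values of 0.15 to 1 FPKM. The p-values set the difference between breeds against the spread between goats of a breed. Anything else that differed between the 2 sets of goats cannot be told apart from breed. The alternatives in the closing section change 1 choice at a time.

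The members, lists and alternatives were chosen with earlier results of these data known. Named are all members and, of each further pathway list, some of the 2 genes with the smallest p per direction; of each marker list, the summed level and the 2 highest members. MS4A1, TNFRSF17, CD79B, FSHR, DAZL and BMP15 were named after their values of 0 were seen. Further members of the luteal, granulosa, fibroblast, surface epithelium, endothelial, smooth muscle and immediate-early lists were also named after their values were seen. Plots used matplotlib 3.10.9 under Python 3.11.15.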

Additional observations from a re-analysis of the deposited data

How the results depend on the processing

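No setting gave a call among the 34 genes. Over all genes the count of higher calls was 0 to 13 with a goat left out (13 without Jintang 3), and the count of lower calls was 0 throughout. Pseudocounts of 0.1 and 0.01, a filter of 5 FPKM or none, TPM scaling, a fit without the trend and the replicate block turned no sign. Median-ratio scaling turned EIF2AK3 (0.035) and SYVN1 (0.0081). With each goat left out in turn, 14 genes kept their sign, and 20 did not, with log2 fold changes over these fits of ASNS (-0.047 to 0.44), ATF4 (-0.14 to 0.12), ATF6 (-0.050 to 0.47), CALR (-0.14 to 0.43), CANX (-0.21 to 0.44), CRELD2 (-0.47 to 0.76), DERL2 (-0.17 to 0.16), DNAJB11 (-0.28 to 0.58), EIF2AK3 (-0.27 to 0.26), HSP90B1 (-0.29 to 0.49), HSPA5 (-0.049 to 0.78), HYOU1 (-0.49 to 0.29), MANF (-0.33 to 0.70), PDIA3 (-0.11 to 0.34), PDIA4 (-0.21 to 0.52), PDIA6 (-0.12 to 0.19), SEC61B (-0.18 to 0.26), SESN2 (-0.46 to 0.17), SYVN1 (-0.42 to 0.10), XBP1 (-0.13 to 0.33). How many of all tested genes changed sign in this way was not counted. From without Jintang 2 to without Tibetan 3, the list medians ran from -0.071 to 0.20 (further folding), -0.20 to 0.20 (translocation), -0.17 to 0.14 (degradation), -0.20 to -0.056 (regulators) and -0.16 to 0.37 (ATF4 targets).

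Replicate numbers pair goats by number only. With the replicate block, 581 genes had an unadjusted p under 0.05, against 806 without it, the log2 fold changes were the same by construction (median of the 34 genes 0.16) and 0 genes passed. Deviations of same-numbered goats correlated at -0.018, -0.21 and -0.47. The count of genes with both top places in Jintang 2 and Tibetan 3 was 17 or 18 under the scalings, alternatives chosen after seeing the data. FPKM without counts gives no counting error for a single value.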
